A study of Nicotiana tabacum with 21 samples.

Results

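The transcripts described here were expressed in BY-2 tobacco cells and had no reads in BY-2H, the habituated line of the same origin. They were chosen by their values: a mean of at least 2 TPM (a level scaled to the length of a transcript and the size of a library) over the 3 stationary BY-2 libraries, and fewer than 1 estimated read in each of the 6 BY-2H libraries. By this rule 1346 transcripts were found among 28660 expressed in BY-2 (4.7%) and 69491 in the reference set. Because the rule fixes that they were high in BY-2 and absent in BY-2H, their values in these lines are given as a description, and no test of this contrast is used as support.

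The study compared suspension cell lines of Nicotiana tabacum by RNA sequencing, with 3 libraries in each of 7 groups. The habituated lines BY-2H and VBI-2 were grown without added auxin, whereas the lines they came from, BY-2 (cultivar Bright Yellow 2) and VBI-0 (cultivar Virginia Bright Italia), depended on auxin in the medium. BY-2H, VBI-2 and VBI-0 cells were sampled in the exponential phase, on day 3, and in the stationary phase. Of BY-2, only stationary libraries were analysed here. The labels put the stationary samples on day 10, and the methods of the study give day 7 for BY-2. The study calls the 3 libraries of a group biological replicates, and the sources used here do not say whether they came from separate cultures, so p-values measure the spread between these libraries. BY-2H was read by Novogene as pairs of 150 bp, while the company GATC Biotech read BY-2, VBI-2 and VBI-0 as 50 bp single reads. Line, auxin supply, company and read type therefore cannot be told apart between BY-2H and BY-2. By the days in the methods of the study, the same holds for the age of the stationary cultures. The 12 VBI libraries share company and read type, and between VBI-2 and VBI-0 only line and auxin supply cannot be told apart.

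Habituation is the acquired ability of plant cells to divide in culture without a hormone that they first required. Tobacco is an allotetraploid that carries the genomes of both its parental species, so most of its genes have a closely similar partner, and short reads that fit both are shared between the partners in proportion to the evidence for each. A transcript without reads can belong to a gene that is missing or to a gene that is present and not transcribed. It can also belong to a gene whose reads were given to a partner. The transcript can as well be present and be missed at the depth or with the read type used. Read counts alone do not separate these cases.

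The libraries held between 10595226 and 13755473 estimated reads or read pairs in BY-2H and between 11364447 and 13111763 in BY-2, beside 10545447 to 17950005 in VBI-2 and 12001963 to 22564711 in VBI-0. The auxin receptor transcript NtTIR1T (Nitab4.5_0000824g0070.1), which the study describes as amplified in BY-2H, was at 1140.5 to 1275 TPM in BY-2H and 5.81 to 11.7 TPM in BY-2, so the labels of these lines fit. The 3 BY-2 libraries differed more from each other than replicates elsewhere. The chi-square of their counts per degree of freedom was 28.7 to 31.8 for the 3 pairs of BY-2 libraries, against 2.03 to 8.11 for the pairs of the other groups.

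In all 6 BY-2H libraries 1338 of the 1346 transcripts had exactly 0 reads, and the other 8 had estimates above 0 and below 1. In BY-2 they took 1.19 to 1.31% of the estimated reads and 3.73 to 4.13% of the TPM of a library. They took 0.853 to 0.905% of the reads in VBI-2 and 0.788 to 0.848% in VBI-0. A single VBI-2 library had at least 1 read for 915 to 956 of them, a VBI-0 library for 845 to 904, and a BY-2 library for 1201 to 1252.

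The depth behind an absence differed widely among them. At the rate at which they were read in the BY-2 libraries, the 3 stationary BY-2H libraries would have held a median of 58.0 reads per transcript, from 0.898 to 14734.5. For 107 transcripts this number was 3 or fewer, so that a lower level in BY-2H was not detectable at this depth. It was above 3 and up to 30 for 433 transcripts, above 30 for 806 and above 1000 for 97. These numbers cover counting error only and take a read pair as 1 read.

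Short transcripts made up most of the set. Their median length was 333 nt (quartiles 228 and 894 nt), against 1134 nt (747 and 1691 nt) for the 27314 expressed transcripts with reads in BY-2H. Under 500 nt long were 818 of them (60.8%), against 12.5% of the others. The share of BY-2-expressed transcripts that had no BY-2H reads was 53.1% up to 200 nt (155 of 292), 34.7% over 200 and up to 250 nt (298 of 858), 5.55% over 400 and up to 500 nt (62 of 1118), 2.12% over 1000 and up to 2000 nt (246 of 11629) and 1.08% above 2000 nt (50 of 4631). The share became smaller in every length class in turn.

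The same count was made for pairs of lines with and without a difference in read type. Among transcripts of up to 200 nt expressed in VBI-0, 54.4% had no BY-2H reads, whereas 15.2% had no VBI-2 reads and 21.6% had no BY-2 reads, the last 2 counts being between lines read as 50 bp single reads. Above 2000 nt these shares were 0.977% in BY-2H, 1.57% in VBI-2 and 1.02% in BY-2. At short lengths absence was thus more frequent in BY-2H than in either line with 50 bp reads, and at long lengths it was not. The counts differ in the number of libraries that had to be without reads, 6 for BY-2H and VBI-2 and 3 for BY-2. The part of read type in the absence of a given transcript was not tested.

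**Figure D1:**
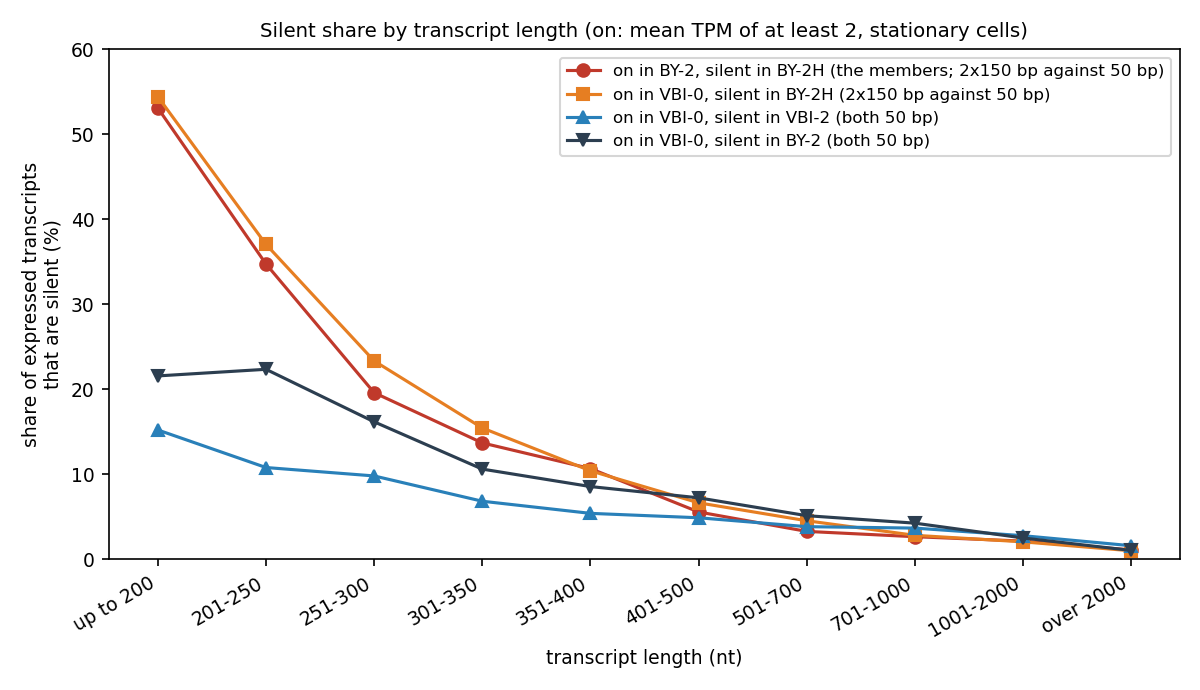
Share of expressed transcripts (mean TPM of at least 2, stationary cells) that had under 1 read throughout the libraries of a second line, in percent, by transcript length in nt. The red and orange lines are counts of absence in BY-2H (2x150 bp) and exceed 50% up to 200 nt, and the blue and dark lines are counts between lines read as 50 bp single reads and stay below 25%.

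The values of the transcripts under 500 nt rested on few reads. They had a median of 16 reads over the 3 BY-2 libraries, and 534 of the 818 had fewer than 30. Their median effective length, the number of positions at which a fragment can start and by which reads are divided to give TPM, was 29 nt in BY-2H and 16 nt in BY-2. At that effective length a single read gives a high TPM. The 3 transcripts just inside the limit, Nitab4.5_0012856g0010.1, Nitab4.5_0005512g0010.1 and Nitab4.5_0000687g0170.1, were each 180 nt long and had 1 read in 1 BY-2 library, which gave 6.01 TPM there, 0 in the other two and a mean of 2.00 TPM. Just outside it, Nitab4.5_0004139g0010.1 of 1068 nt had about 129.6 reads in BY-2, a mean of 1.9995 TPM and none in BY-2H. In all, 266 transcripts had 0 reads in at least 1 BY-2 library, and 861 reached 2 TPM in each of the 3.

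The limit of 1 read also had close neighbours. Among expressed transcripts, 254 had exactly 1 read in their highest BY-2H library and were left out, among them Nitab4.5_0007263g0010.1 with 4651, 5315 and 188 TPM in the BY-2 libraries and Nitab4.5_0001606g0070.1 with 505, 1229 and 869 TPM. A further 459 transcripts without BY-2H reads lay between 1 and 2 TPM in BY-2. Both limits thus passed through continuous ranges of values.

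The 528 transcripts of at least 500 nt stood on a firmer base. They had a median of 305 reads in BY-2, none had fewer than 30, and at the BY-2 rate the stationary BY-2H libraries would have held at least 38.0 reads of each and over 100 reads for 452. Their median effective length was 761 nt in BY-2H and 552 nt in BY-2. Their BY-2 estimates above 0 lay more than 0.001 from a whole number, as happens where reads are shared between transcripts, in 89.2% of cases, against 93.6% for the other expressed transcripts of this length. Their level in BY-2 was moderate. The median was 7.19 TPM, against 9.33 TPM for the others of this length, and the share without BY-2H reads was 2.93% among transcripts of 2 to 5 TPM (200 of 6816) and 1.21% among those of 100 TPM or more (15 of 1244).

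Of the 10 most abundant, 8 were shorter than 300 nt. The highest was Nitab4.5_0006492g0040.1 (210 nt), with 0 reads in the 6 BY-2H libraries and 6506, 7356 and 4174 TPM in the BY-2 libraries. It was far lower in both VBI lines, with 39.4, 58.9 and 17.1 TPM in stationary VBI-2 and 382, 259 and 308 TPM in stationary VBI-0 cells. VBI-2 and VBI-0 libraries did not overlap for this transcript in either phase (log2 fold change -4.30 ± 0.55 SE, adjusted p = 9.1e-07, exponential; -3.09 ± 0.33, adjusted p = 6.8e-08, stationary; edgeR quasi-likelihood test with Benjamini-Hochberg adjustment over 48440 transcripts).

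Among these 10, the transcript with the most reads behind it was Nitab4.5_0003782g0030.1 (743 nt). It had no reads in BY-2H, where the BY-2 rate would have given 14734.5 reads in stationary cells, and 570.4, 523 and 526 TPM in the BY-2 libraries. With 3 reads summed over the group as the floor, its reads relative to library size were at least 4912-fold lower in stationary BY-2H than in BY-2. It reached 677, 589.9 and 619.8 TPM in stationary VBI-2 and 1964, 1957 and 1905 TPM in stationary VBI-0 libraries, a difference of -1.50 ± 0.07 in log2 (SE; adjusted p = 2.6e-13). The transcript was thus abundant in every line but BY-2H.

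A further abundant transcript of the same scaffold, Nitab4.5_0003782g0080.1 (426 nt), was likewise lower in VBI-2 than in VBI-0. It had 438, 499 and 619.7 TPM in BY-2. In the stationary phase it averaged 275 ± 17.2 TPM in VBI-2 and 1187 ± 34.3 TPM in VBI-0 (SD, n = 3 each; log2 fold change -2.14 ± 0.08 SE; adjusted p = 1.1e-14). The 3 other transcripts of this scaffold that had BY-2 expression without BY-2H reads were all called lower in stationary VBI-2, with log2 fold changes of -5.79 for Nitab4.5_0003782g0020.1, -3.39 for Nitab4.5_0003782g0040.1 and -3.04 for Nitab4.5_0003782g0120.1.

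Nitab4.5_0000452g0110.1 (231 nt) had the opposite order. It was at 1128, 1031 and 689 TPM in BY-2. It was higher in VBI-2 than in VBI-0 in both phases, with 1526, 1085 and 1500.0 TPM in stationary VBI-2 and 50.8, 41.2 and 41.6 TPM in stationary VBI-0 libraries (log2 fold change 4.89 ± 0.20 SE; adjusted p = 2.2e-14). Scaffold Nitab4.5_0000452 held 6 of the silent transcripts among its 7 expressed ones, and its next members in order, Nitab4.5_0000452g0120.1 and Nitab4.5_0000452g0130.1, were also called higher in stationary VBI-2 (log2 fold changes 2.57 and 3.02).

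Of the remaining 6 abundant transcripts, Nitab4.5_0001193g0010.1 and Nitab4.5_0001618g0340.1 were lower in VBI-2 in both phases, and Nitab4.5_0013560g0010.1 in the stationary phase alone. Nitab4.5_0004376g0170.1, Nitab4.5_0003324g0170.1 and Nitab4.5_0011882g0060.1 were not called in either. The BY-2 libraries spread widely for the shortest of them, as for Nitab4.5_0013560g0010.1 (126 nt) with 1866, 712 and 1201 TPM.

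**Figure D2:**
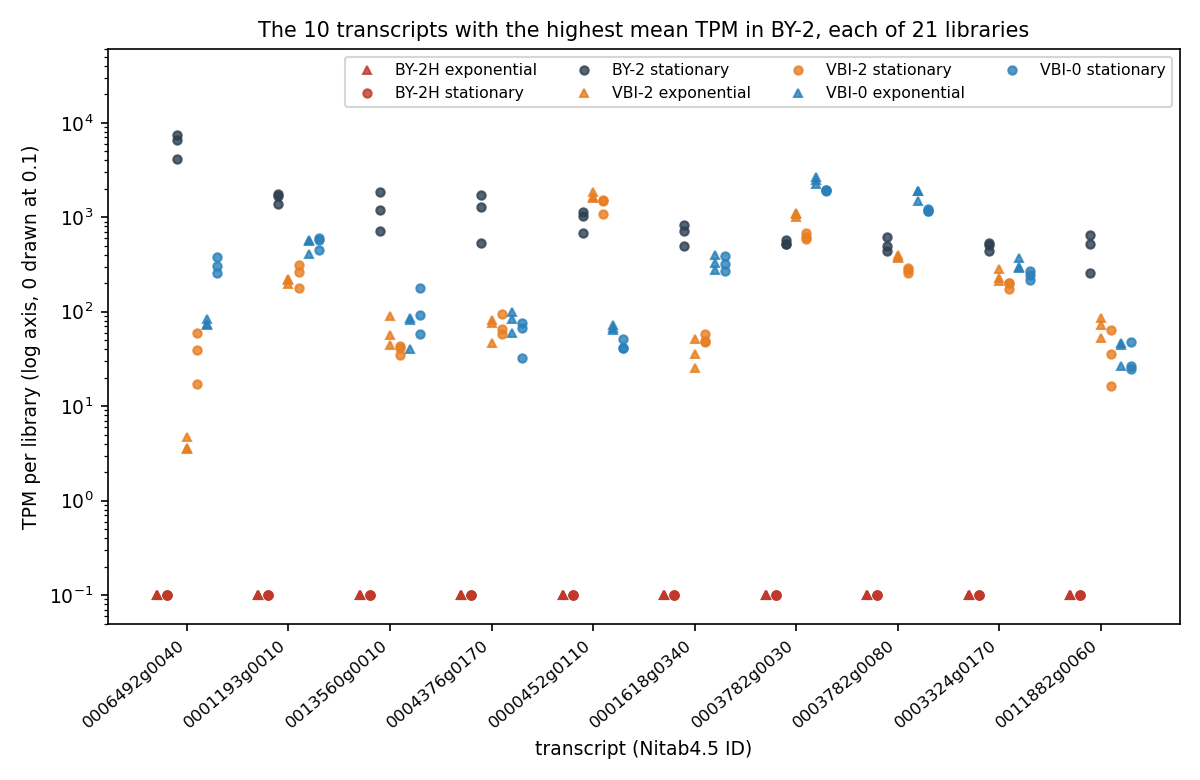
TPM in each of 21 libraries (log axis, 0 drawn at 0.1) for the 10 transcripts with the highest mean in BY-2. Points from left to right are BY-2H, BY-2, VBI-2 and VBI-0 libraries, with triangles for exponential and circles for stationary cells; all 6 BY-2H libraries are at 0 for each transcript, while every VBI library had reads.

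The IDs of the reference give a scaffold and the order of genes on it, with no distances. The 1346 transcripts lay on 1067 of the 8874 scaffolds that had an expressed transcript, with 1 on 880 scaffolds, 2 on 135 and 3 or more on 52. Scaffold Nitab4.5_0000172 held the most (10 of 29 expressed), followed by Nitab4.5_0003324 (8 of 10), Nitab4.5_0001152 (7 of 11), and Nitab4.5_0000452 and Nitab4.5_0002649 (6 of 7 each). Of the 10 on scaffold Nitab4.5_0000172, 9 were shorter than 500 nt, whereas on scaffold Nitab4.5_0003324 most were long. On 10 of the 3472 scaffolds with at least 3 expressed transcripts, all the expressed ones were without BY-2H reads, 5 of 5 on scaffold Nitab4.5_0002278 and 4 of 4 on scaffold Nitab4.5_0006764 being the most.

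A run was counted where at least 2 of these transcripts followed each other among the expressed transcripts of a scaffold, with no transcript between them that had BY-2H reads. There were 118 runs with 267 transcripts (19.8% of 1346). They comprised 95 runs of 2, 17 runs of 3, 4 runs of 4 and 2 runs of 5. Transcripts in runs were longer (median 759 nt, 64.4% of at least 500 nt) than those outside runs (288 nt, 33.0%).

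Neighbours were counted without the definition of a run as well. The next expressed transcript on the scaffold was also silent in BY-2H for 183 of 699 transcripts that had one (26.2%), against 676 of 19087 (3.54%) for expressed transcripts with BY-2H reads. For those of at least 500 nt it was 118 of 292 (40.4%), and for those under 500 nt 65 of 407 (16.0%). When short transcripts were left out of the order altogether, the next long transcript was silent in BY-2H after 92 of 260 silent ones (35.4%) and after 184 of 15982 others (1.15%). Silent transcripts of either length class had a silent neighbour more often than the other expressed transcripts did. These shares are descriptions of 1 reference and 1 pair of lines, and the neighbours of a scaffold are not independent of each other.

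The longest runs with 5 transcripts were on scaffolds Nitab4.5_0003324 and Nitab4.5_0002649. On scaffold Nitab4.5_0003324 the run went from Nitab4.5_0003324g0100.1 to Nitab4.5_0003324g0170.1. With 0 reads in BY-2H, its members were in BY-2 at 2.27, 2.52 and 3.15 TPM (g0100), 60.8, 47.2 and 57.7 TPM (g0110), 11.5, 4.86 and 4.28 TPM (g0120), 9.62, 11.1 and 6.67 TPM (g0130) and 434, 504 and 538 TPM (g0170) in the 3 libraries. Levels within the run thus differed widely in BY-2. Upstream in order, g0050, g0060 and g0070 of this scaffold formed a second run, and the transcripts between the runs, g0080 and g0090, had reads in BY-2H.

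In the VBI lines, the transcripts of this run were low except for the short g0170. Nitab4.5_0003324g0110.1 averaged 55.2 ± 7.10 TPM in BY-2 (SD, n = 3) but had 7.66 reads in all in exponential VBI-2, 3.78 in exponential VBI-0 and 0 in the stationary libraries of both. Nitab4.5_0003324g0100.1 had 1.22, 0.703 and 7.46 reads in the stationary VBI-2 libraries and 0 in all 6 VBI-0 libraries, which was called higher in VBI-2 (adjusted p = 0.0346; at least 2.96-fold in reads relative to library size, with the floor at 3 reads summed over the VBI-0 libraries). Most of these reads lay in stationary VBI-2 replicate 3, and without it the adjusted p was 0.206. The call was also lost without any 1 of the stationary VBI-0 libraries, and over all alternatives the adjusted p ranged from 0.0262 to 0.206. No other transcript of this run was called between VBI-2 and VBI-0 in either phase.

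The run on scaffold Nitab4.5_0002649 was expressed in both VBI lines, and all 5 of its transcripts were higher in VBI-2 in both phases. The longest, Nitab4.5_0002649g0090.1 (4192 nt), had 53.7, 53.4 and 48.6 TPM in stationary VBI-2, 9.66, 9.33 and 9.35 TPM in stationary VBI-0 and 40.5, 52.2 and 46.5 TPM in BY-2 libraries. The VBI-2 values of this transcript overlapped those of BY-2 and lay above all VBI-0 values (log2 fold change 2.23 ± 0.09 SE; adjusted p = 3.3e-14). In BY-2H, where the BY-2 rate would have given 12756 reads, there were none. For the other 4, g0040, g0050, g0060 and g0110, the log2 fold changes lay between 2.04 and 4.01 over both phases. The nearest neighbours with BY-2H reads were g0030 before the run and g0120 after it. Of these, g0030 had only 2 reads over the 6 BY-2H libraries and 134 over the 3 BY-2 libraries. Before it, g0020 was again silent in BY-2H and on in BY-2. After the run, g0120 had 21 reads in BY-2H and 18 in BY-2.

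On scaffold Nitab4.5_0002278 the run of 4, from Nitab4.5_0002278g0010.1 to Nitab4.5_0002278g0040.1, had the opposite direction in the VBI lines for 3 of its transcripts. Nitab4.5_0002278g0040.1 was the most abundant in BY-2 with 86.4, 156 and 125 TPM. It had 0 reads in the 3 stationary VBI-2 libraries and 2.70, 2.47 and 3.16 TPM in the stationary VBI-0 libraries, at least 41.2-fold lower in VBI-2 relative to library size. Nitab4.5_0002278g0010.1 and Nitab4.5_0002278g0030.1 were lower in VBI-2 as well, with log2 fold changes of -3.12 ± 0.29 and -2.25 ± 0.16 (SE) in stationary cells. Nitab4.5_0002278g0020.1 was not called, with 4.11 ± 0.382 TPM in VBI-2 and 3.98 ± 0.404 TPM in VBI-0 (SD, n = 3 each), values that overlapped.

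Both other runs of 4 among the 5 longest had members that were lower in VBI-2 and none that was called higher. On scaffold Nitab4.5_0006764, g0030, g0050 and g0060 were lower in both phases, the last with 3.32, 1.99 and 3.11 TPM in stationary VBI-2 and 22.3, 21.9 and 20.9 TPM in stationary VBI-0 libraries (Nitab4.5_0006764g0060.1, log2 fold change -3.11 ± 0.17 SE; adjusted p = 3.4e-12). On scaffold Nitab4.5_0006878, g0040 was lower in both phases and g0020 in the stationary phase. Its g0010 was the most abundant in BY-2 (40.2, 108 and 45.3 TPM) and was not called between the VBI lines, since its log2 difference of 0.58 ± 0.11 (SE) in stationary cells was under the limit of 1. Directly after this run, g0050 had BY-2H reads, with a mean of 1.04 TPM in stationary BY-2H and 3.89 TPM in BY-2.

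**Figure D3:**
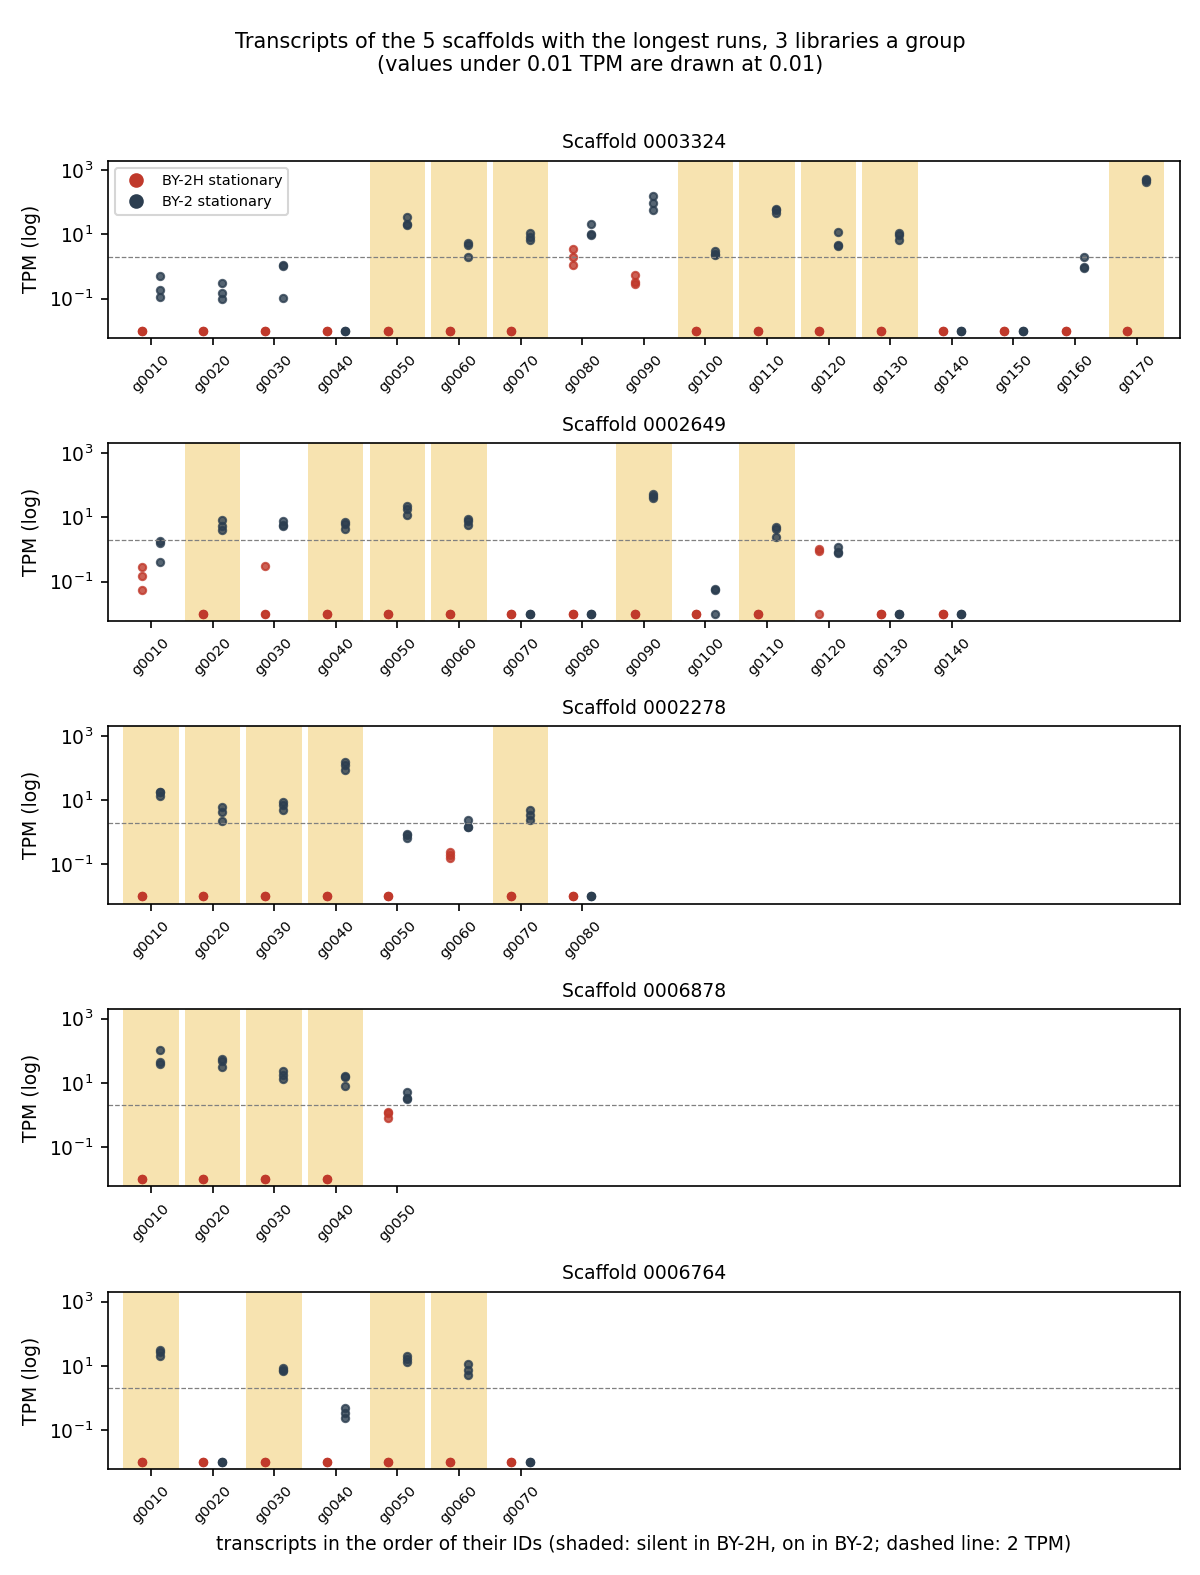
TPM in each of 3 stationary libraries per line (log axis, values under 0.01 drawn at 0.01) for the transcripts of the 5 scaffolds with the longest runs, in the order of their IDs, BY-2H in red left of BY-2 in dark blue. Shaded transcripts are those silent in BY-2H and on in BY-2, and the dashed line is the limit of 2 TPM. Red points above 0.01 mark the neighbours that had reads in stationary BY-2H libraries. Reads in exponential BY-2H libraries are not drawn.

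The VBI lines were not used by the rule, so expression there could be tested. A mean of at least 2 TPM in exponential or stationary cells was reached by 840 of the 1346 transcripts in VBI-2 (62.4%). In VBI-0 it was reached by 789 (58.6%). Among the expressed transcripts with BY-2H reads these shares were 82.8% in VBI-2 and 87.0% in VBI-0. Fewer than 1 read in each of the 6 libraries of a line was found for 242 in VBI-2 (18.0%) and 279 in VBI-0 (20.7%), against 4.81% and 2.67% of the others. In both VBI lines 129 were without reads (9.58%), 118 of them shorter than 500 nt. More than 9 in 10 thus had reads in at least 1 VBI line.

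Every one of the 1346 passed the filter on low values through its level in BY-2, and the 1226 with reads in the VBI libraries were tested. In exponential cells 287 were called higher in VBI-2 (23.4%) and 217 lower (17.7%), at an adjusted p of at most 0.05 and a change of at least 2-fold. Among all 48440 transcripts tested in this comparison, 17.1% were called higher and 21.5% lower (38.5% in all). In stationary cells 298 were called higher in VBI-2 (24.3%) and 209 lower (17.0%), against 17.7% higher and 22.3% lower (39.9%) among all. More of them were thus called higher than lower in VBI-2 in either phase, while among all transcripts more were called lower. Line and auxin supply change together here and cannot be told apart.

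Of the transcripts called in either phase, 254 were higher in VBI-2 in both phases and 168 lower in both, 82 were called in exponential and 85 in stationary cells only, and none was called in opposite directions. The share with the same call in both phases was 71.6%, against 67.2% among all tested. All 3 VBI-2 libraries lay above all 3 VBI-0 libraries in 280 of the 287 called higher and below them in 208 of the 217 called lower in exponential cells, and in 290 of 298 and 196 of 209 in stationary cells. These shares lay between 93.8% and 97.6%. Among all transcripts called, the groups did not overlap for 8102 of 8275 higher and 10075 of 10391 lower in exponential cells, and for 8325 of 8565 and 10459 of 10785 in stationary cells. Both phases compare the same pair of lines.

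Most of the higher calls were of long transcripts. Of the 517 tested with at least 500 nt, 212 were called higher in exponential VBI-2 (41.0%) and 107 lower (20.7%), against 15.3% and 20.8% of the other BY-2-expressed transcripts of this length. In stationary cells 218 were called higher (42.2%) and 106 lower (20.5%), against 15.8% and 21.7% of the others. Their median log2 fold change was 0.62 in either phase, against -0.01 for the others of this length. Among the 709 tested under 500 nt, 75 were called higher and 110 lower in exponential and 80 higher and 103 lower in stationary cells. For these short transcripts the shares called higher were 10.6% in exponential and 11.3% in stationary cells, against 12.8% and 14.0% of other short ones. The shares called lower were 15.5% in exponential and 14.5% in stationary cells, against 23.9% and 23.1% of other short ones.

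**Figure D4:**
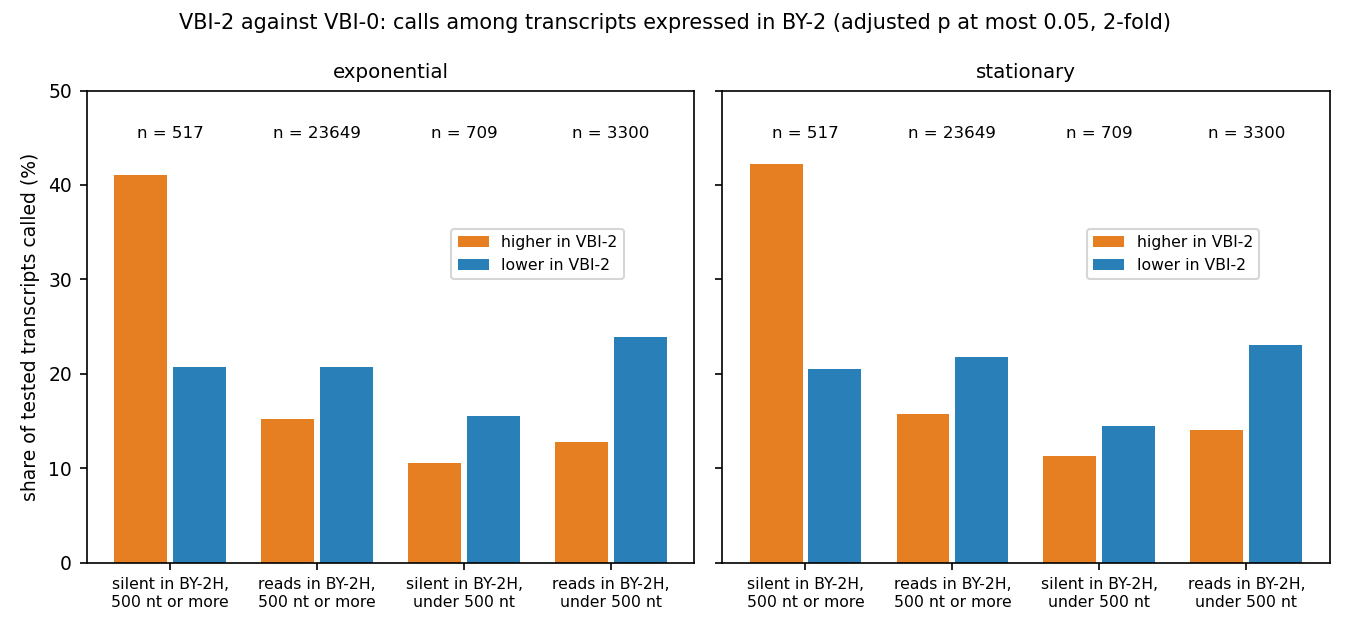
Share of tested transcripts called higher (orange) or lower (blue) in VBI-2 than in VBI-0, in percent, in exponential (left) and stationary cells (right), for transcripts expressed in BY-2, by length and by reads in BY-2H. Transcripts silent in BY-2H with 500 nt or more have the tallest orange bars, at 41.0 and 42.2%, while their blue bars are level with those of the other long transcripts.

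Part of these transcripts was fully absent from VBI-0. Of the 528 with at least 500 nt, 70 had 0 reads in all 6 VBI-0 libraries and a mean of at least 2 TPM in exponential or stationary VBI-2 (13.3%), against 0.624% (149 of 23892) of the other long transcripts expressed in BY-2. With fewer than 1 read in each VBI-0 library as the limit, the counts were 70 of the 528 and 152 of the others (0.636%). The reverse pattern, fewer than 1 read in each VBI-2 library and a mean of at least 2 TPM in exponential or stationary VBI-0, was found for 21 of the 528 (3.98%), against 2.38% of the others (568 of 23892). Transcripts read in BY-2 and VBI-2 but in neither BY-2H nor VBI-0 were thus more frequent here than those read in BY-2 and VBI-0 alone.

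The transcript with the largest fitted difference, Nitab4.5_0000293g0030.1 (2044 nt), had all but no reads in VBI-0. It had 109.7, 106 and 104 TPM in exponential VBI-2 libraries and 0 TPM in the 3 exponential VBI-0 libraries. In BY-2H, where the BY-2 rate would have given 14028 reads, it had none, and in BY-2 it was at 159, 125 and 154 TPM. VBI-2 was at least 4925-fold higher relative to library size than 3 reads summed over the exponential VBI-0 libraries. In stationary cells VBI-0 had 1.41 reads in all, and the ratio of VBI-2 to VBI-0 was 7686 (lower bound of the 95% exact interval 1949, counting error only).

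The next 4 in exponential cells had 0 reads in all 6 VBI-0 libraries. Nitab4.5_0010954g0020.1 (1241 nt) had 133, 162 and 143 TPM in stationary VBI-2 and 109, 105 and 116 TPM in BY-2 libraries, and was at least 2343-fold higher in stationary VBI-2 than in VBI-0. Nitab4.5_0007061g0060.1 (640 nt) had 107, 103 and 109 TPM in stationary VBI-2 and 140.0, 242 and 140.4 TPM in BY-2. Both were abundant in BY-2 and VBI-2 and had no reads elsewhere. Nitab4.5_0008450g0020.1 (31.1 ± 4.96 TPM in stationary VBI-2 and 46.1 ± 6.28 TPM in BY-2; SD, n = 3) and Nitab4.5_0005983g0040.1 (43.6 ± 3.06 TPM and 64.6 ± 3.33 TPM in the same order) were lower in level and alike in pattern.

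Nitab4.5_0003741g0010.1 (549 nt) stood among the 5 highest in stationary cells only. It had 183, 144 and 108 TPM in stationary VBI-2 libraries, 0 reads in stationary VBI-0 libraries and 1 read in all in exponential ones. Its level in BY-2 was lower and spread, with 7.96, 5.02 and 19.0 TPM. All 3 stationary VBI-2 values of this transcript exceeded all its BY-2 values.

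The 70 transcripts lay on 56 scaffolds, and 12 scaffolds held at least 2 of them (26 transcripts). Scaffold Nitab4.5_0007734 held 4, which were picked out after their values were seen. Nitab4.5_0007734g0010.1 was at 14.5 ± 0.559 TPM in stationary VBI-2 and 6.53 ± 2.92 TPM in BY-2, Nitab4.5_0007734g0030.1 at 2.18 ± 0.930 TPM and 6.26 ± 2.72 TPM, Nitab4.5_0007734g0040.1 at 2.16 ± 0.161 TPM and 3.22 ± 1.07 TPM, and Nitab4.5_0007734g0070.1 at 5.16 ± 1.51 TPM and 2.87 ± 0.997 TPM in the same order (SD, n = 3). All 4 had 0 reads in the 6 VBI-0 and the 6 BY-2H libraries. Nitab4.5_0007734g0030.1 and Nitab4.5_0007734g0040.1 followed each other and formed a run. The 4 were not contiguous as a whole, since Nitab4.5_0007734g0020.1, Nitab4.5_0007734g0050.1 and Nitab4.5_0007734g0060.1 between them were read in all 4 lines. Of these, Nitab4.5_0007734g0020.1 had at most 1.57 reads in a BY-2H library.

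Among the transcripts that were lower in VBI-2, 5 of the 6 with the lowest fold changes had 0 reads in all 6 VBI-2 libraries. Nitab4.5_0002914g0040.1 (390 nt) had 192, 204 and 231 TPM in exponential VBI-0 and 85.5, 95.3 and 94.3 TPM in BY-2 libraries, and was at least 1278-fold lower in exponential VBI-2. Nitab4.5_0008167g0060.1, Nitab4.5_0007732g0040.1, Nitab4.5_0005875g0040.1 and Nitab4.5_0004406g0050.1 were at 8.72 ± 0.677 TPM, 14.8 ± 1.65 TPM, 6.52 ± 0.427 TPM and 7.31 ± 1.09 TPM in stationary VBI-0 (SD, n = 3 each). These transcripts were read in both auxin-dependent lines and in neither habituated line.

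The remaining one, Nitab4.5_0009206g0010.1 (1713 nt), had few reads in VBI-2. It had 0.127, 0.0632 and 0.0839 TPM in stationary VBI-2 and 158, 135 and 167 TPM in stationary VBI-0 libraries (log2 fold change -10.85 ± 0.20 SE; adjusted p = 1e-18), beside 41.4, 40.4 and 52.3 TPM in BY-2. The groups lay far apart in either phase.

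**Figure D5:**
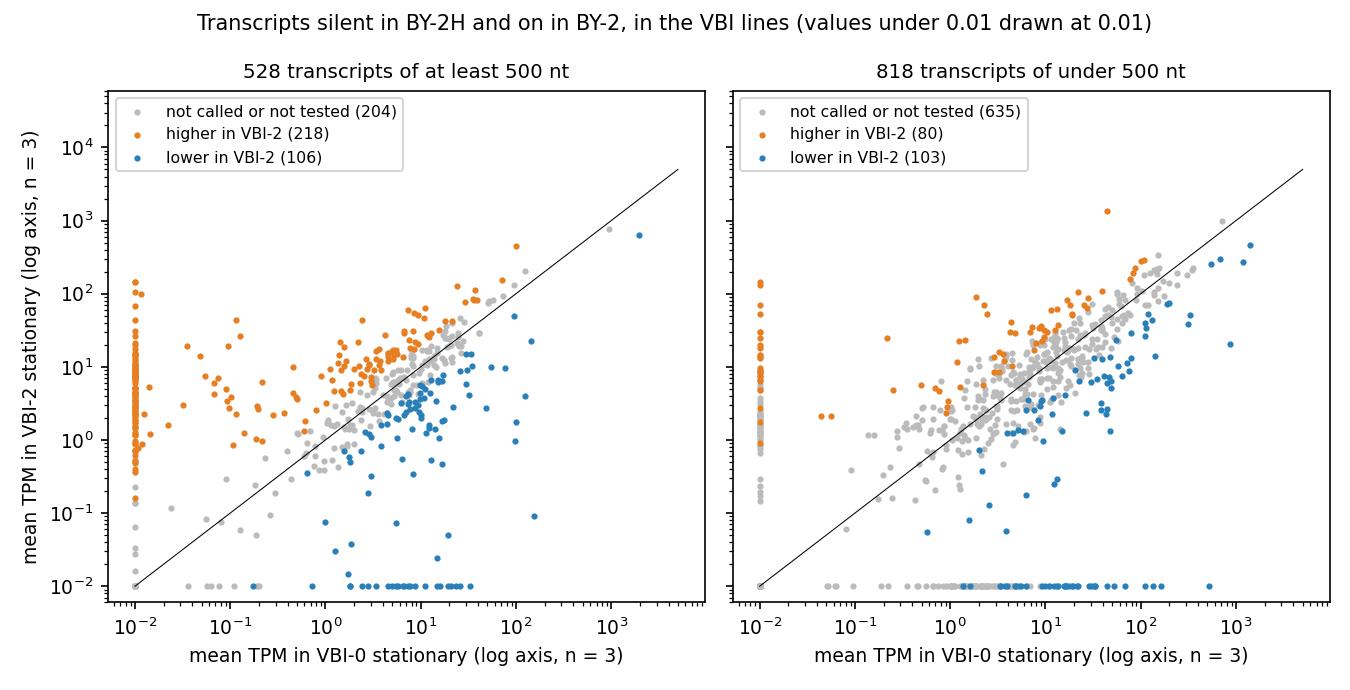
Mean TPM in stationary VBI-2 (vertical) against stationary VBI-0 (horizontal), both log axes with values under 0.01 drawn at 0.01, for the 528 transcripts of at least 500 nt (left) and the 818 under 500 nt (right); the line marks equal levels. Orange points were called higher in VBI-2 (218 long, 80 short) and blue points lower (106 long, 103 short), and orange points on the left border of the left panel are long transcripts with no or almost no VBI-0 reads.

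The called transcripts of a run mostly had 1 direction between the VBI lines, as did those of other neighbours. In exponential cells 45 of the 118 runs had at least 2 called transcripts. In 34 of them all called ones were higher in VBI-2, in 9 all were lower and in 2 they differed. In stationary cells 45 runs had at least 2, with 34 all higher, 10 all lower and 1 of both kinds. Of neighbouring pairs within runs in which both were called, 51 of 53 had the same direction in exponential cells (96.2%) and 52 of 53 in stationary cells (98.1%). For neighbouring pairs of the other BY-2-expressed transcripts these shares were 89.1% of 3276 pairs and 87.1% of 3399 pairs. The difference between these shares was not tested.

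Few of these transcripts were called between the growth phases. In VBI-0, 16 of the 1226 tested were higher and 22 lower in stationary than in exponential cells (3.10% in all), against 1.97% higher and 2.49% lower (4.45%) among all tested. Without VBI-0 exponential replicate 2 the calls in VBI-0 numbered 24, of which 13 were lower. Those higher numbered 10 without VBI-0 exponential replicate 3 or VBI-0 stationary replicate 3. In VBI-2, 8 were higher and 5 lower (1.06%), against 0.993% higher and 0.603% lower (1.6%) among all. Those higher numbered 5 without VBI-2 exponential replicate 1 or 2 and 4 without VBI-2 stationary replicate 3, and those lower numbered 3 without VBI-2 stationary replicate 2 or VBI-2 exponential replicate 3. The most abundant transcript, Nitab4.5_0006492g0040.1, was one of the 8, with 39.4, 58.9 and 17.1 TPM in stationary and 3.56, 3.60 and 4.74 TPM in exponential VBI-2 libraries, groups that did not overlap. The interaction of line and phase had an adjusted p of at most 0.05 for 29 of the 1226, against 6.82% of all tested. By length, 4.26% of those tested with at least 500 nt were called between the phases in VBI-0 and 1.74% in VBI-2. Among the other BY-2-expressed transcripts of this length these shares were 3.96% and 1.43%. Under 500 nt they were 2.26% in VBI-0 and 0.564% in VBI-2, against 4.82% and 2% of other short ones.

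Few of these transcripts carry a name in the tables used here. Of the 1346, 25 were found in the tables of the study used here, some of which were held only in part, and 15 of these have a RefSeq symbol, so functions could not be counted over the set. Auxin acts in plant cells by bringing AUX/IAA repressors to TIR1/AFB receptors, which mark them for degradation and so free the ARF transcription factors. Of the auxin-related list of the study, built from homologs of annotated Arabidopsis genes with additions made by hand, 546 transcripts were expressed in BY-2 and 12 of them were without BY-2H reads (2.20%), against 4.7% of all expressed transcripts. Of all expressed transcripts of at least 500 nt, 528 of 24420 were without BY-2H reads. The auxin-related list was not compared at matched length. The 38 expressed AUX/IAA transcripts included 1 of the 12. None of the 37 ARF and none of the 10 receptor transcripts expressed in BY-2 was among them, nor were any of 18 expressed components of the repressive histone-methylating complex PRC2. The other 11 carry no class in the list.

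The AUX/IAA transcript was Nitab4.5_0001556g0100.1 (LOC107806659; 990 nt). It had 0 reads in BY-2H and 6.84, 12.7 and 25.4 TPM in the BY-2 libraries. In exponential cells it had 8.28, 1.41 and 3.29 TPM in VBI-2 and 67.1, 79.5 and 64.8 TPM in VBI-0 libraries, and in stationary cells 1.41, 0.590 and 0.923 TPM in VBI-2 and 94.2, 106 and 93.1 TPM in VBI-0 libraries. It was low or absent in both habituated lines, and in VBI-2 it was lower in both phases (log2 fold changes -4.01 ± 0.30 and -6.53 ± 0.38 SE; adjusted p = 2.8e-10 and 5.6e-12). It was the only one of the 12 whose level differed with growth phase in VBI-2, being lower in stationary than in exponential cells (log2 fold change -2.26, adjusted p = 0.00822). A second ID given the same RefSeq accession, Nitab4.5_0007553g0010.1, had 0 TPM in BY-2H and BY-2 cells of the stationary phase.

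The 12 listed transcripts did not share a direction in the VBI lines. In exponential cells 3 were higher in VBI-2, 5 lower and 4 not called, and in stationary cells 3 were higher, 7 lower and 2 not called. Nitab4.5_0007777g0020.1 (LOC107793683) and Nitab4.5_0004906g0030.1 (LOC107798508) were called higher in both phases. In stationary cells Nitab4.5_0007777g0020.1 averaged 1.19 ± 0.220 TPM in VBI-2 and 0.0142 ± 0.0247 TPM in VBI-0, and Nitab4.5_0004906g0030.1 3.01 ± 0.398 TPM in VBI-2 and 0.0319 ± 0.0291 TPM in VBI-0 (SD, n = 3 each). Nitab4.5_0008424g0030.1 (LOC107801872) and Nitab4.5_0004406g0050.1 had 0 reads in VBI-2 and averaged 7.69 ± 2.42 and 7.31 ± 1.09 TPM in stationary VBI-0 cells (SD, n = 3 each). Nitab4.5_0000025g0170.1 (LOC107779405) had 0 reads in all 6 VBI-0 libraries and 0.358, 1.23 and 4.79 TPM in exponential VBI-2 libraries. It was called higher in exponential VBI-2 (adjusted p = 0.0143, edgeR quasi-likelihood test), with reads at least 5.79-fold higher relative to library size. Of its 15.3 reads in exponential VBI-2, 10.8 were in replicate 3. In stationary cells it was not called (adjusted p = 0.0758, same test).

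In the comparison that the rule used, 1051 of the 1346 were called lower in stationary BY-2H than in BY-2, where 22.8% of 47271 transcripts tested were called lower. The rule chose them on this contrast, so that none could be higher, and nothing is read from this count.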

How the data were processed

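RNA of 21 libraries (7 groups of 3) was analysed. The authors corrected and trimmed the reads and quantified them with Salmon 1.3.0 against a tobacco cDNA set, with bias correction; the processing notes of the submitters name Trimmomatic. The deposited files give per transcript the estimated count (used as estimated reads), the TPM, and other values, namely the length and the effective length as deposited by the authors. Members and lists were chosen with earlier results of these data known.

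Estimated counts were rounded and tested with edgeR 4.0.16 (R 4.3.3; quasi-likelihood, TMM factors, Benjamini-Hochberg adjustment). Transcripts with a mean above 0.5 TPM in at least 1 of the 7 groups and reads in the fit were tested. A call was made at an adjusted p up to 0.05 together with a change of 1 or more on the log2 scale, up or down. The VBI comparisons shared 1 fit of 12 libraries, with the spread estimated over them. Alternatives used DESeq2 1.42.0 and limma 3.58.1. The fits were tested on simulated counts, with recovery counted at an adjusted p of at most 0.05. For exponential VBI-2 against VBI-0, 72% of 2-fold and 97% of 4-fold changes were recovered, and 2.87% of calls were false. For stationary BY-2H against BY-2, these shares were 34%, 87% and 3.97%. A transcript that was not called can thus still differ by 2-fold. Tables and figures were made with Python 3.11.15, pandas 2.3.3, numpy 2.4.6, scipy 1.17.1 and matplotlib 3.10.9.

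Silent means fewer than 1 estimated read in each library of a line. Folds against groups without reads are bounds that set 3 reads as the sum of such a group, and ratios with 1 to 3 reads have 95% exact (Clopper-Pearson) intervals. Named were the 10 transcripts highest in BY-2, those of the 5 runs with the most members (ties by summed TPM), those given a class or name by the study, the 5 highest and 5 lowest called with non-overlapping groups in each comparison of VBI-2 and VBI-0, and the nearest to each limit. Product groups could not be counted, since the IDs matched no product names. Gene symbols came from the RefSeq table through accessions that the study pairs with the IDs (15 matched).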

Additional observations from a re-analysis of the deposited data

Results flagged for a closer look

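The AUX/IAA transcript Nitab4.5_0001556g0100.1 was singled out because the difference between VBI-2 and VBI-0 differed between the growth phases. The log2 fold change of VBI-2 over VBI-0 was -6.53 in stationary and -4.01 in exponential cells. The interaction of line and phase was -2.52 ± 0.55 in log2 (SE; adjusted p = 0.00784, edgeR quasi-likelihood test with Benjamini-Hochberg adjustment over 48440 transcripts). The 3 exponential VBI-2 libraries of Nitab4.5_0001556g0100.1 spread from 1.41 to 8.28 TPM, and the highest stationary VBI-2 library, which rounds to 1.41 TPM as well, lay just below the lowest of them.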

How the results depend on the processing

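The number of transcripts depended on the limits: it was 835 at 5 TPM, 861 with 2 TPM required in each BY-2 library, 2347 with fewer than 5 reads allowed per BY-2H library, and, as alternatives chosen after seeing the data, 812 with at least 30 BY-2 reads and 528 with at least 500 nt. The 118 runs became 56 (128 transcripts) at 5 TPM and 61 (138 transcripts) with at least 500 nt, the auxin-related members 21 with fewer than 5 reads allowed, and the share under 500 nt 35.0% with at least 30 reads. The filter filterByExpr left 684 of them in the test of BY-2H against BY-2, and all 684 were called lower in BY-2H. In the VBI fit it left 744 in the test, and 73 short transcripts were called lower in exponential VBI-2. Without the fold limit the growth phase calls were 105 in VBI-0 (48 higher, 57 lower) and 22 in VBI-2 (12 lower). DESeq2 called 10 higher in VBI-0 and 5 higher in VBI-2, and a fit of only the 6 VBI-2 libraries called 3 lower. The replicate numbers did not pair the libraries throughout, as correlations of same-numbered libraries lay below 0.1 in every comparison for at least 1 number. A pairing in part was not excluded. In stationary VBI-2 against VBI-0 these correlations were -0.021, 0.138 and 0.189 for numbers 1, 2 and 3. The highest correlations with other numbers were 0.039, 0.020 and 0.0018 in the same order. A replicate block gave 937 calls for BY-2H against BY-2, 484 and 489 for VBI-2 against VBI-0 (exponential and stationary), and 34 in VBI-0 and 13 in VBI-2 for the growth phase.

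Leaving out 1 library at a time gave 1301 to 1409 transcripts, 949 to 1000 calls for BY-2H against BY-2, 466 to 501 (exponential) and 478 to 512 (stationary) for VBI-2 against VBI-0, 24 to 38 for the growth phase in VBI-0 (10 to 17 higher, 13 to 22 lower) and 9 to 15 in VBI-2 (4 to 9 higher, 3 to 6 lower). The growth phase counts moved by over 1.5 times without VBI-0 exponential replicate 2 (24, with 13 lower), without VBI-0 exponential replicate 3 or VBI-0 stationary replicate 3 (10 higher each), without VBI-2 exponential replicate 1 or 2 (5 higher each), without VBI-2 stationary replicate 3 (4 higher), and without VBI-2 stationary replicate 2 or VBI-2 exponential replicate 3 (3 lower each). The cause was not tested. For the named transcripts, 1770 values under the alternatives kept direction and call, 19 lost and 4 gained the call, and none reversed. Depth limits mainly the transcripts under 500 nt, 534 of which had fewer than 30 BY-2 reads.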
